A study of Mus musculus with 20 samples.

Results

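Hematopoietic stem cells (HSCs) from mice that had gone through many rounds of fluorouracil (5FU) were compared with HSCs from mice that had gone through none or few. The late side pooled the samples labelled 4x and 10x and the early side the samples labelled 0x and 2x, where the label gives the number of 5FU cycles, which put all 20 samples of the series into 1 comparison of 10 late samples (4 of 4x and 6 of 10x) with 10 early samples (4 of 0x and 6 of 2x). 5FU kills dividing blood cells, and the dormant stem cells are then drawn into division to rebuild the blood, so the number of cycles stands for a number of enforced rounds of proliferation. The comparison asked which methylation differences set cells with 4 or more cycles apart from cells with 2 or none. Beyond the cycles, all groups were alike in the labels: C57BL/6 HSCs with no other agent or allele, named as blood in the tissue label and sorted from bone marrow of C57BL/6 J mice per the study's methods. The mice were females of 3 months at the start, were injected every 3 weeks, and gave their cells 1 month after the last cycle. Neither the age at sampling nor whether each sample came from a mouse of its own is in the labels. The p-values below therefore measure the spread between these samples, and the number of cycles and the time spent under treatment cannot be told apart. Methylation data hold no expression by which the sorted cells could be checked.

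DNA methylation was measured by reduced representation bisulfite sequencing (RRBS), in which an enzyme cuts at CpG-rich sites, bisulfite turns unmethylated cytosines into uracil, and the cytosines that are still read as C are counted as methylated. The values are the percent methylation of 100 bp bins. The bins compared were autosomal, varied within each of the 4 groups, and held no value other than 0 or 100 that recurred exactly within a group. A recurring value can mark a bin that the study filled in with its group mean. Measured values that happen to be equal cannot be told from filled ones, so bins with such values were left out too. These were 81383 of 1201951 bins (6.77%), and 14373 genes had such a bin within 1 kb of a transcription start site (TSS). No read numbers are in the tables, so the depth behind each value is unknown.

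As background, CpGs in mammalian genomes fall into 2 states. Those of CpG-dense stretches at gene starts are mostly free of methylation, kept so in part by TET enzymes and by the chromatin of active and Polycomb-bound promoters. CpGs in sparse DNA, in gene bodies and between genes, are mostly methylated and are copied to the new strand after each replication by the maintenance enzyme DNMT1. CpGs that stand alone between A or T bases (solo-WCGW CpGs) are known for losing methylation with the number of divisions in many tissues. Both sides of this landscape could therefore be set against the number of 5FU cycles.

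The bins on which the comparison of single sites turned are shown first. They are the bins in which no late sample overlapped an early one (the Krt27, Dab2ip and Cfap74 bins), others among the bins with the smallest p, the 2 bins that carried the Adamts9 promoter, and a CpG-dense bin of Suz12 from the low-methylated class. Of the Suz12 promoter bins it is the one with the largest difference. The letters are the plus strand of GRCm38, 5′ to 3′, with CpGs in capitals.
Krt27 bin: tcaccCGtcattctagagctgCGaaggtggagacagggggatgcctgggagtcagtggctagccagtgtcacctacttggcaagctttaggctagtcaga
Dab2ip bin: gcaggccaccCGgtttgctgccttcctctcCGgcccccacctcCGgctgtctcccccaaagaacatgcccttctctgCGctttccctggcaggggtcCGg
Lrcol1 bin: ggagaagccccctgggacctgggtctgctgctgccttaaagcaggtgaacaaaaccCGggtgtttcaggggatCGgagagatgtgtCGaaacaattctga
Shh bin: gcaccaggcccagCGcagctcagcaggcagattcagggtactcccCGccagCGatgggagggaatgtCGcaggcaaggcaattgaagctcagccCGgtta
Hoxd3 bin: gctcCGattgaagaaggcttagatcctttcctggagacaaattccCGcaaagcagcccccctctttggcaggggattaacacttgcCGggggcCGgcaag
Cfap74 bin: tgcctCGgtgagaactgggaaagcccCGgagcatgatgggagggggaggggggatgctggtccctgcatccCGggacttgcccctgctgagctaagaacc
Krt84 bin: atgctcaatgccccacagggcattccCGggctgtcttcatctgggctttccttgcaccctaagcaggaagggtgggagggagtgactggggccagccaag
Oog4 bin: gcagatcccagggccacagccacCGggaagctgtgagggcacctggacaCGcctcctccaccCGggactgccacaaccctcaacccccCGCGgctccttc
Adamts9 bin A: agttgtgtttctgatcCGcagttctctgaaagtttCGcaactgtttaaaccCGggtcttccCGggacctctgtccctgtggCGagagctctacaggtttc
Adamts9 bin B: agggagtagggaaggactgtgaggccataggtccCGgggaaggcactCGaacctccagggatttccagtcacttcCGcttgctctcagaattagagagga
Suz12 bin: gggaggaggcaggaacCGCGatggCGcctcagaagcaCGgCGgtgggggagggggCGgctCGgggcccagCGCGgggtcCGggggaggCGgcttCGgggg

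Mean methylation over all bins was higher in late HSCs. It was 49.7, 49.9, 49.6 and 49.9% in the 4x samples and between 49.9 and 50.4% in the 10x samples, against 49.8, 48.7, 48.4 and 48.7% in the 0x samples and between 48.3 and 49.9% in the 2x samples. All 10 late samples lay above the early median and 6 lay above every early sample, so the sides overlapped in part. The averages were 49.98 ± 0.27% in late and 49.16 ± 0.61% in early samples (SD, n = 10 each), a difference of 0.82 ± 0.21 percentage points (SE; two-sided permutation test over samples, 100000 resamples, p = 0.00088). All 19 autosomes moved the same way, by 0.64 to 1.02 points. In order of cycles the group means were 48.9% (0x), 49.3% (2x), 49.8% (4x) and 50.1% (10x).

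**Figure D1:**
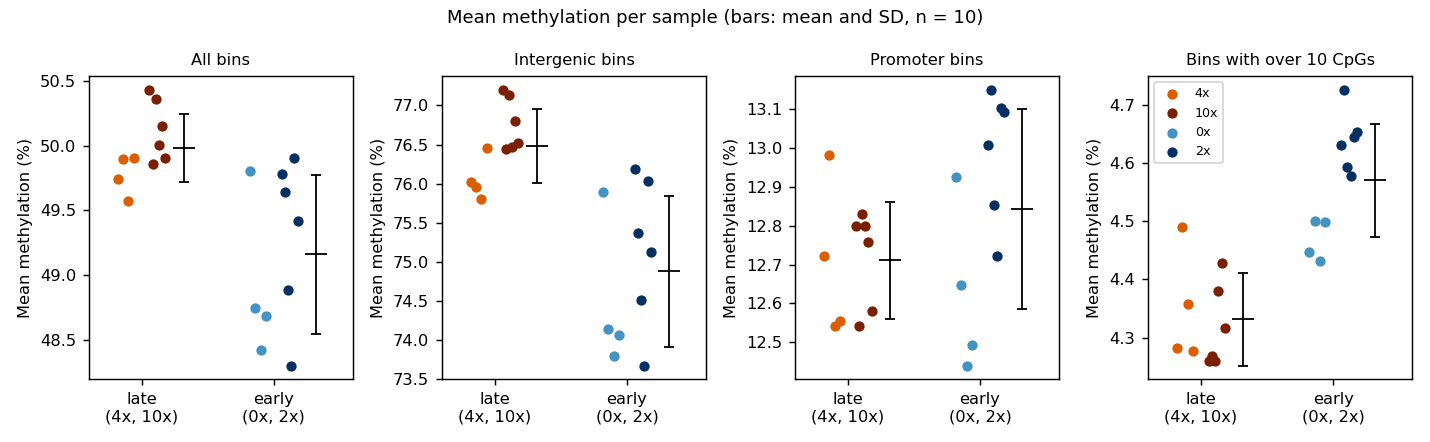
Mean methylation (%) of each sample over all bins, intergenic bins, promoter bins and bins with over 10 CpGs, with late samples (4x and 10x) left of early samples (0x and 2x) and bars for the mean and SD of each side (n = 10). Late samples sit high in the first 2 panels, overlap early samples among promoter bins and sit low among CpG-dense bins, where the late mean is 4.33% and the early mean 4.57%.

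The gain was not even across the genome. By genomic class, 7 of 8 classes rose in late HSCs, all but promoters. Intergenic bins averaged 76.5 ± 0.47% in late and 74.9 ± 0.96% in early samples (SD, n = 10 each), a rise of 1.6 ± 0.34 points, and introns averaged 73.5 ± 0.39% and 72.2 ± 0.92%, a rise of 1.39 ± 0.32 points (SE; permutation test adjusted over the 8 classes, adjusted p = 0.000533 for both). Non-coding exons rose by 1.25 points, transcript ends by 1.19, 3′ UTRs by 1.05, coding exons by 1.0 and 5′ UTRs by 0.88 (adjusted p between 0.000533 and 0.0255 in this test). Promoter bins averaged 12.7 ± 0.15% in late and 12.8 ± 0.26% in early samples, a difference of -0.13 points whose 95% interval ran from -0.33 to 0.07 (adjusted p = 0.174). The distance between intergenic and promoter bins within a sample was 63.8 ± 0.46 points in late and 62.0 ± 0.77 points in early samples, wider in late cells by 1.74 ± 0.28 points (permutation p = 4e-05), and 9 of 10 late samples exceeded every early one.

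CpG number gave the same order as genomic class. Bins with 1 to 3 CpGs averaged 74.1 ± 0.49% in late and 72.5 ± 1.01% in early samples (n = 10 each), 1.55 points higher, and bins with 4 to 6 CpGs were 0.75 points higher in late (adjusted p = 0.000405 and 0.0018 over 9 strata, permutation test). Bins with 7 to 10 CpGs differed by -0.07 points (adjusted p = 0.388). Bins with over 10 CpGs are the CpG island-like DNA to which the Suz12 bin belongs. They averaged 4.33 ± 0.08% in late and 4.57 ± 0.10% in early HSCs, a difference of -0.24 points (adjusted p = 9e-05, permutation test). In order of cycles their group means were 4.47% (0x), 4.64% (2x), 4.35% (4x) and 4.32% (10x), highest in 2x. All 10 late samples lay below the early median of this class, between 4.26 and 4.49%, against 4.43 to 4.73% in early samples. The 2402 bins with a solo-WCGW CpG rose by 1.47 points and the others by 0.80 (adjusted p = 0.0018 for both). Among bins of 1 to 3 CpGs, however, those with a solo-WCGW CpG exceeded the rest by 3.62 points in late and by 3.64 points in early samples, and this distance differed by -0.01 points between the sides (95% interval -0.42 to 0.39, permutation p = 0.943).

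**Figure D2:**
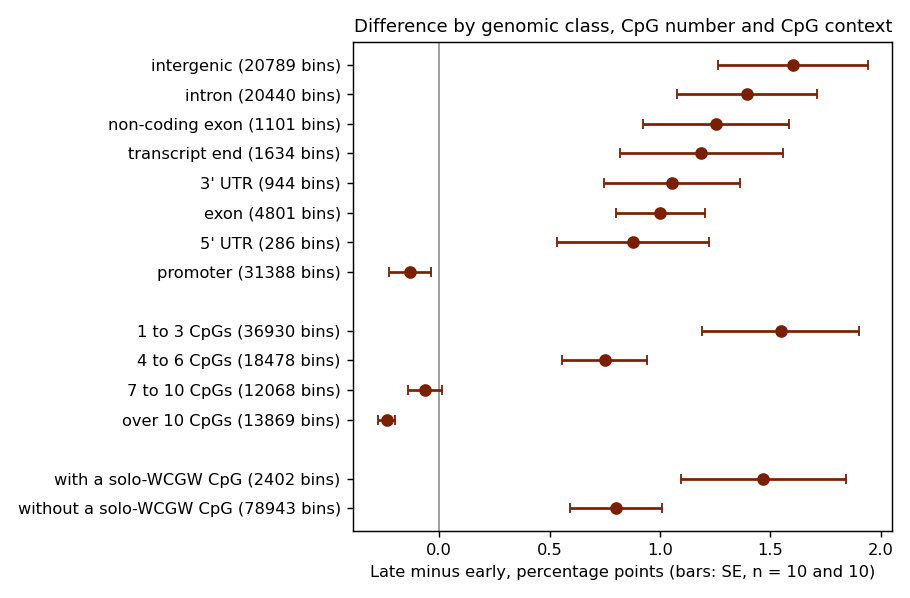
Late minus early difference in mean methylation (percentage points) by genomic class, by CpG number and by solo-WCGW context, with points for the difference and bars for its SE (n = 10 late and 10 early). The points run from 1.6 for intergenic bins to -0.13 for promoters, and from 1.55 for bins of 1 to 3 CpGs to -0.24 for bins of over 10 CpGs.

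Sorted by their own level over all 20 samples, bins of this set already methylated gained and those almost free of methylation lost. Other bin sets, given below, did not all show this. The 34255 bins over 80% averaged 93.4 ± 0.56% in late and 91.8 ± 0.89% in early samples, the 12984 bins from 20 to 80% averaged 55.9 ± 0.94% and 53.9 ± 1.40%, and the 34144 bins under 20% averaged 4.16 ± 0.15% and 4.58 ± 0.13% (SD, n = 10 each). The differences were 1.64, 1.94 and -0.42 points (adjusted p = 0.000405, 0.00238 and 9e-05, permutation test). In 7 narrower ranges the difference was -0.25 points below 5%, -0.90 from 5 to 20%, 0.82 from 20 to 40%, 2.07 from 40 to 60%, 2.49 from 60 to 80%, 2.25 from 80 to 95% and 0.73 above 95%. Of the bins from 80 to 95%, 64.3% were higher in late HSCs, and of those from 5 to 20%, 44.2%. Promoters, whose average did not pass the test, held both parts. Their 26903 bins under 20% averaged 3.32% in late and 3.75% in early samples, and their 4485 bins of 20% or more averaged 69.1% and 67.4%.

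**Figure D3:**
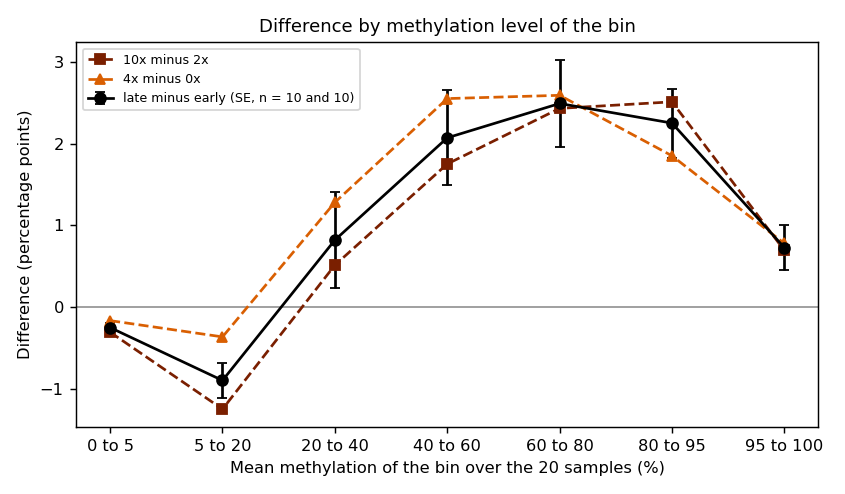
Difference in mean methylation (percentage points) against the mean level of the bin over the 20 samples (%), in black for late minus early with its SE (n = 10 and 10) and dashed for 10x minus 2x and 4x minus 0x, which share no sample. All 3 lines are below 0 under 20% and above 0 from 20% on; the black line is highest at 2.49 points.

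The signs under 20% and over 80% were the same in comparisons that shared no samples. These comparisons did share the sorting, since the level of each bin was taken over all 20 samples. From 10x minus 2x the differences were -0.56 points under 20% and 1.79 points over 80%, and from 4x minus 0x they were -0.22 and 1.42 points. Samples with label numbers 1 to 12 (4 late and 4 early) gave -0.34 and 0.82 points, where 0.0286 is the smallest exact permutation p and the values were 0.0857 and 0.171. Samples with numbers 13 to 34 (6 late and 6 early) gave -0.48 and 2.19 points (exact permutation p = 0.00216 for both, the smallest possible). In the narrower range above 95%, samples numbered 1 to 12 differed by -0.12 points and samples numbered 13 to 34 by 1.29 points. The distance between bins over 80% and bins under 20% was wider in late samples in both number ranges, and more so in the higher range by 1.51 points (exact permutation p = 0.0262). Within the sides, 2x lay above 0x by 0.20 points under 20% and by 0.46 points over 80%, and 10x differed from 4x by -0.14 and 0.83 points.

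Both parts depended on which bins were compared. In bins where only 3 or more groups had to vary the mean rose by 0.40 points (permutation p = 0.154), no class passed the test, and bins with over 10 CpGs differed by 0.06 points in the other direction. Where at most 25% of the values stood at 0 or 100, the mean rose by 1.07 points (permutation p = 0.00366), whereas bins with over 10 CpGs differed by 0.12 and bins under 20% by -0.07 points, both short of the test (permutation, adjusted p = 0.402 and 0.49). With the level of each bin taken from the early samples alone, bins under 20% differed by -0.06 points, bins from 20 to 80% by 3.12 points and bins over 80% by 0.77 points (permutation, adjusted p = 0.321, 0.00018 and 0.0393). The gain over 80% was 0.03 points in all deposited bins that vary, filled ones included, and 0.21 points where 3 or more groups varied (permutation, adjusted p = 0.931 and 0.719). In all deposited bins that vary, bins under 20% and promoter bins passed the test as higher in late HSCs, by 0.38 and 0.29 points (permutation, adjusted p = 0.0044 and 0.00149), while without the 0x group promoter bins passed as lower by 0.28 points (exact permutation, adjusted p = 0.0115). When 10x was left out, the mean difference was 0.62 points (exact permutation p = 0.0759), and bins over 80% differed by 1.15 points (exact permutation, adjusted p = 0.0719).

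Late samples also carried fewer values at the ends of the scale. The share of values at exactly 0 or 100 was 30.4, 9.41, 53 and 50.7% in 4x samples and 24.0 to 38.5% in 10x samples, against 33, 45.5, 28.3 and 49.1% in 0x samples and 49.4 to 62.5% in 2x samples. The sides averaged 33.5 ± 12.8% in late and 49.4 ± 11.6% in early HSCs (SD, n = 10 each; difference -15.98 ± 5.47 points, permutation p = 0.0103), and without the 2x group the difference was -5.54 points (exact permutation p = 0.466). The median SD per bin was 5.43 points over the late and 8.78 points over the early samples, and the early SD was the larger in 74.9% of bins. Such shares move with the reads per bin, which are unknown, and their part in the differences above was not tested. A bin near 0 was compared only if every group held a value other than 0 there, and likewise near 100. The 2x group had the largest mean share at 0 or 100 (56.4%) and the highest mean in bins under 20% (4.66%). Over 80% the lowest mean was that of 0x (91.5%). The part of the bin rule in the differences above was not tested either. In bins under 20%, 35.1% of late and 52.6% of early values were exactly 0, while the average there was the lower in late HSCs.

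No single bin passed the test. With limma on the percent values, at an adjusted p under 0.05 and a difference of at least 10 points, 0 of 81383 bins (0%) were called, and the smallest adjusted p was 0.159. Unadjusted, 3576 bins (4.39%) had a p under 0.05, 2231 of them higher and 1345 lower in late HSCs. This share is no more than a p threshold of 0.05 would give where nothing differed. With 10 points or more there were 1288 higher (1.58%) and 751 lower (0.923%) bins. No bin was called either with a separate variance for each bin, and the log2 ratio of methylated to unmethylated percent called 2, the Krt27 and Dab2ip bins.

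These unadjusted differences were found where a bin had room to move. Bins higher in late HSCs had medians of 77.6% in late and 49.3% in early samples, and those lower in late HSCs had medians of 55.0% and 81.0%. Bins of intermediate level, from 20 to 80%, made up 57.4% and 54.3% of them, against 16% of all, as a minimum of 10 points leaves out most bins near 0. Within 1 kb of a TSS lay 18.9% of the higher and 19.6% of the lower bins, against 38.6% of all bins tested, but among bins of intermediate level alone the shares were 19.2% and 19.4%, against 18.6% of all. There the median was 2 CpGs in the higher, the lower and all bins. Of the bins directly beside a higher bin, 66.1% were higher too, with a median difference of 3.37 points. Of those beside a lower bin, 59.9% were lower, with a median of -1.73 points. Among all bins with a neighbour, 51.0% were higher. Both bins of a pair were measured in the same samples, so these shares are no separate support for either bin.

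The 2 bins in which every late sample exceeded every early sample (0.00246% of bins) both lie in introns. The Krt27 bin, in the gene of a keratin of the hair follicle sheath (chr11:99346200-99346299, 2 CpGs), had a lowest, median and highest value of 84.3, 99.8 and 100% in late HSCs, against 44.8, 69.7 and 82.9% in early HSCs. It stood at 95.6% or more in 8 of 10 late samples and was 30.8 ± 4.79 points higher in late (SE; limma, adjusted p = 0.159). The Dab2ip bin (chr2:35663100-35663199, 5 CpGs), in the gene of a Ras GTPase-activating protein, had 91.6, 100 and 100% in late HSCs, against 50, 82.2 and 88.8% in early HSCs. The bin stood at 100% in 7 late samples and in no early sample, and the difference was 19.4 ± 3.56 points (limma, adjusted p = 0.199).

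A single bin lay lower in every late than in every early sample (0.00123%). This Cfap74 bin (chr4:155451800-155451899, 3 CpGs), in an intron of the gene of a protein of motile cilia, had 3.85, 29.9 and 50.8% in late HSCs, against 51.9, 61.4 and 92.6% in early HSCs. It was 37.2 ± 6.79 points lower in late HSCs (limma, adjusted p = 0.199). Its group means were 65.4% (0x), 68.5% (2x), 28.2% (4x) and 31.3% (10x), with the step between 2x and 4x.

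Another 8 bins had an adjusted p under 0.2; they were chosen after their values were seen, as were the 3 above. Higher in late HSCs was an intronic bin of Shh, the Hedgehog ligand (chr5:28463200-28463299, 1898 bp downstream of its nearest start), with 12.1, 29.0 and 50% in late HSCs, against 0, 0 and 21.3% in early HSCs. Every late sample carried methylation there and 6 of 10 early samples carried none. The Hoxd3 bin, in an intron of a homeobox gene of the HoxD cluster (chr2:74734700-74734799), had 0, 11.1 and 24.5% in late HSCs, against 0, 0 and 4.22% in early HSCs. In 9 of 10 late samples it exceeded every early sample. The Lrcol1 bin (chr5:110354100-110354199), in an intron, had 80.1, 87.1 and 100% in late HSCs, against 57.1, 69.7 and 81.0% in early HSCs. A bin 35128 bp from Gm33315 on chromosome 13 was higher by 50.4 points.

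Lower in late HSCs was the Krt84 bin, which holds 1 CpG 3330 bp upstream of another keratin gene (chr15:101536100-101536199), with 0, 51.2 and 66.7% in late HSCs, against 57.3, 100 and 100% in early HSCs. Only 1 early sample, of 2x, came within the late range. The Oog4 bin lies 10226 bp upstream of an oocyte-expressed gene (chr4:143460500-143460599) and had 39.3, 54.6 and 66.7% in late HSCs, against 54.4, 93.3 and 100% in early HSCs. A bin within 1 kb of the start of Gm29883 on chromosome 4 was lower by 30.3 points and a bin at a transcript end on chromosome 16, nearest Gm34476, by 28.1 points. Of all 11 bins, this Gm29883 bin was the only one within 1 kb of a TSS. In group means the 0x and 2x samples lay on the same side of both the 4x and the 10x samples in each of the 8 bins plotted. These bins were chosen by the same contrast, which favours such an order, so it is no separate support.

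**Figure D4:**
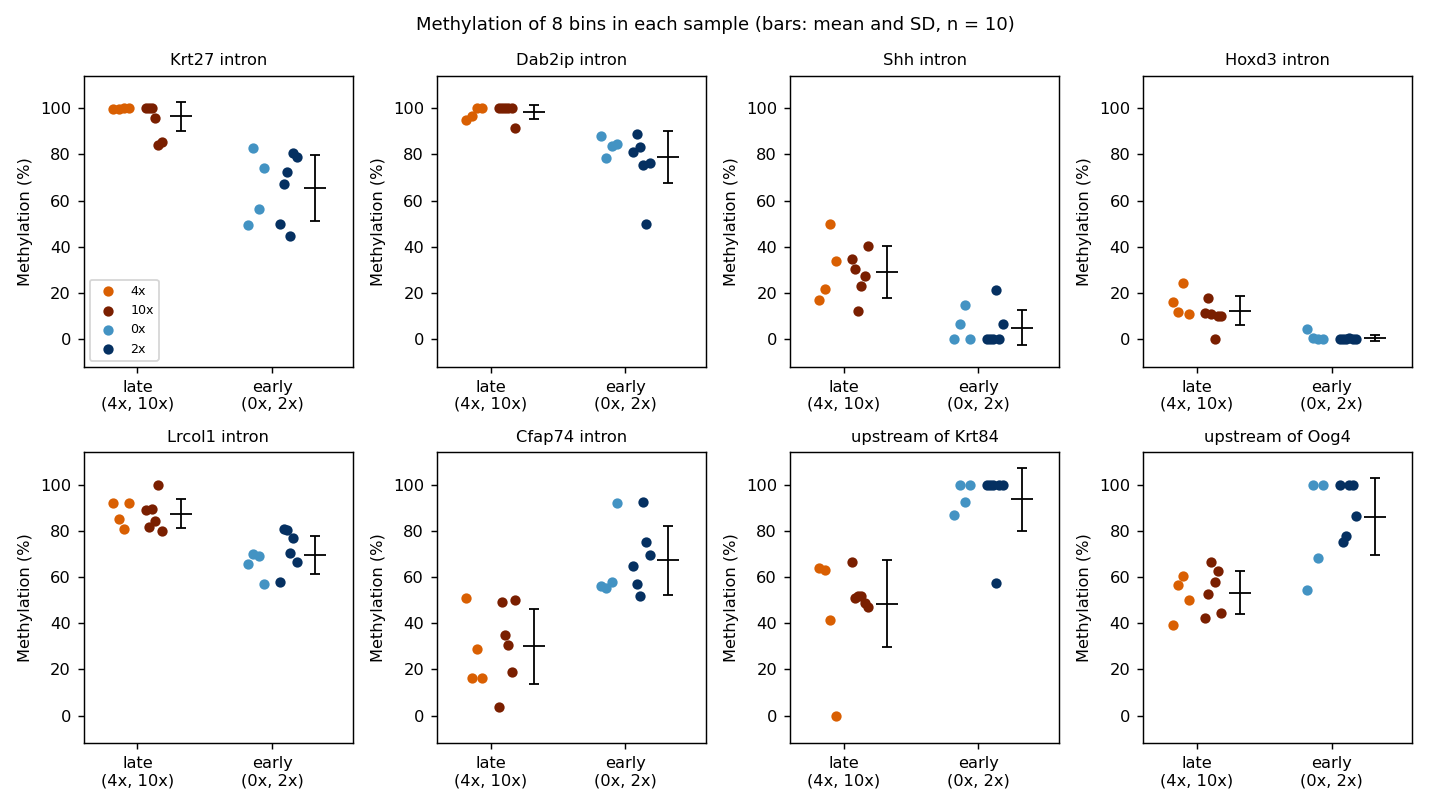
Methylation (%) of 8 bins in each sample, late samples (4x and 10x) left of early samples (0x and 2x), with bars for the mean and SD of each side (n = 10). The sides do not overlap in the Krt27, Dab2ip and Cfap74 introns, where the late medians are 99.8, 100 and 29.9% and the early medians 69.7, 82.2 and 61.4%.

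Promoters of single genes did not pass the test either. Promoter methylation, the mean of the bins within 1 kb of a TSS of the gene, was called at an adjusted p under 0.05 for 0 of 14373 genes (0%; limma), and unadjusted for 338 higher (2.35%) and 296 lower (2.06%) in late HSCs. Together these were 4.41%, again no more than a p threshold of 0.05 would give where nothing differed. The Adamts9 promoter stood closest to the threshold. Adamts9, on chromosome 6 (92772699 to 92944450, minus strand), encodes a secreted metalloprotease that cleaves proteoglycans, and a non-coding gene, 9530026P05Rik, overlaps its start on the other strand. Its 3 bins averaged 26.3, 34.7 and 37.0% (lowest, median and highest) in late HSCs, against 11.2, 19.05 and 28.0% in early HSCs. Of the late samples, 9 exceeded every early sample. The difference was 14.04 ± 2.22 points (adjusted p = 0.0583), 15.8 points in 4x minus 0x and 12.9 points in 10x minus 2x, and the adjusted p moved to both sides of the threshold with the setting. It passed with a window of 500 bp (adjusted p = 0.0491), where 3 bins per promoter were required (adjusted p = 0.0176) and where at most 25% of values stood at 0 or 100 (adjusted p = 0.0183). No promoter came below an adjusted p of 0.0677 with a window of 2000 bp, 0.0946 with centred samples, 0.102 with the label number range as a block, 0.112 with equal weights of the 4 groups, 0.482 with a variance trend or 0.53 on the log2 ratio scale.

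The Adamts9 difference sat in the 2 bins printed above. Bin A (chr6:92944200-92944299) had 17.6, 33.3 and 57.5% in late HSCs, against 0, 14.2 and 30.98% in early HSCs, and bin B (chr6:92944400-92944499), at the annotated start, had 51.2, 60.7 and 87.4%, against 18.8, 41.9 and 76.2%. Both were higher in late HSCs, by 20.5 ± 5.27 and 21.2 ± 6.66 points, with overlap between the sides. The third bin, a CpG-dense stretch of 12 CpGs (chr6:92943200-92943299), had medians of 2.27% in late and 0% in early HSCs and a difference of 0.35 points.

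Other promoters with the smallest unadjusted p among the higher ones were far from the threshold (adjusted p of at least 0.79, limma). Cdr2l had 12.1, 18.3 and 30.9% in late HSCs, against 0, 1.58 and 22.03% in early HSCs, and its difference of 14.7 points came from 1 of 4 bins, with 1 CpG (chr11:115381500-115381599), which was higher by 56.4 points. Lrrtm2, which encodes a synaptic adhesion protein, had 1 bin (46.1, 60.1 and 91.5% in late, against 0, 32.9 and 56.1% in early HSCs). Sh2d3c, an adaptor of integrin and receptor signalling, differed by 12.8 points over 4 bins, Ctnna1, which encodes alpha-catenin of cell junctions, by 9.47 points over 4 bins, and Speg, a kinase of striated muscle, by 7.16 points over 6 bins. Naxd, a repair enzyme of damaged NADH, averaged 2.81% in late and 0.42% in early HSCs. Asic4, of the acid-sensing channels, differed by 22.1 points, the protease inhibitor-like Wfdc2 by 12.6 points and Dcdc2a, of the doublecortin family, by 6.11 points.

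The lower ones were mostly promoters that were nearly unmethylated in late HSCs. Kat6a, a histone acetyltransferase that HSCs need, had 0, 0.98 and 3.04% in late HSCs, against 0.36, 5.65 and 6.98% in early HSCs. All 10 late samples were below the early median, and the difference over its 5 bins was -3.84 ± 0.83 points (limma, adjusted p = 0.79). Khdrbs3, an RNA-binding splicing regulator, averaged 0.81% in late and 4.63% in early HSCs, the neuronal adhesion gene Astn1 2.10% and 7.17%, Aplp1, a relative of the amyloid precursor, 1.19% and 4.43%, and the kinase gene Pak4 1.21% and 5.65%. The nuclear receptor gene Nr4a1 averaged 0.53% and 2.99%, and Adam10, which sheds Notch and other surface proteins, 1.68% and 4.36% over 7 bins. None of these reached an adjusted p under 0.79. Mir8099-1, Mir128-2 and the F-box gene Fbxl22 differed by -35.1, -9.64 and -18.9 points with 1 or 2 bins each.

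**Figure D5:**
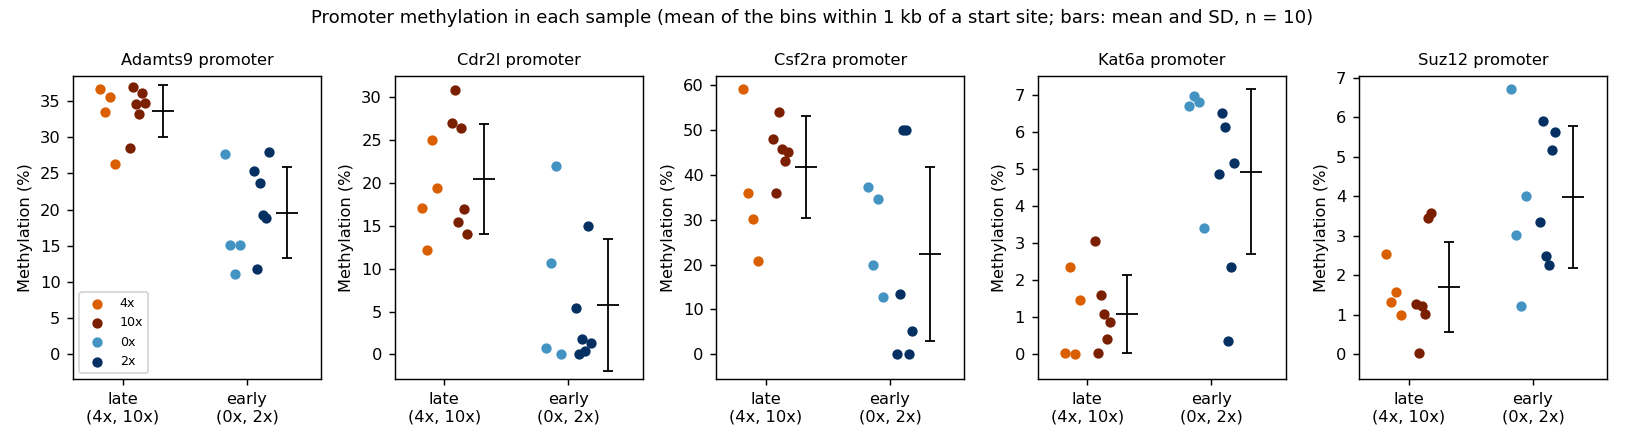
Promoter methylation (%) of Adamts9, Cdr2l, Csf2ra, Kat6a and Suz12 in each sample, late samples (4x and 10x) left of early samples (0x and 2x), with bars for the mean and SD of each side (n = 10) and a separate scale in each panel. Late samples sit higher in the first 3 panels and lower in the last 2, with medians of 34.7% (late) and 19.05% (early) for Adamts9 and of 1.30% (late) and 3.68% (early) for Suz12.

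No member of the 29 gene lists, 512 measured genes in all, passed the test over all promoters. Unadjusted, 15 were higher and 13 lower in late HSCs, 5.47% of the measured genes, close to the 4.41% of all promoters tested. In sign alone, 44.8% of all promoters were higher and 55.2% lower in late HSCs, and the counts below are to be read against these shares. Among the writers and erasers of DNA methylation, none of 8 measured genes had an unadjusted p under 0.05, and their median difference was -0.65 points, against -0.21 points over all genes tested. Of the Polycomb repressive complex 2, which marks developmental promoters with H3K27 methylation, the core subunit Suz12 was lowest in p among 11 measured genes. Its 4 bins averaged 0.04, 1.30 and 3.57% in late HSCs (lowest, median and highest), against 1.23, 3.68 and 6.71% in early HSCs, a difference of -2.27 ± 0.74 points (limma, unadjusted p = 0.006, adjusted p = 0.896). The CpG-dense bin printed above, 244 bp inside the start, had medians of 0% in late and 8.76% in early HSCs. Its group means were 3.50% (0x), 8.92% (2x), 0.11% (4x) and 1.87% (10x), highest in 2x, and 10x minus 0x was -1.64 points. Its difference of -5.59 points was the largest of the 4 bins, and the others differed by -1.69, -1.78 and -0.04 points. Of the Polycomb repressive complex 1 and its BCL6 partners, 13 of 20 genes were lower, with Phc2 at -2.51 and Phc3 at -1.80 points.

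No promoter of a lineage gene passed the test. The HSC transcription factors had a median difference of -0.34 points over 19 genes (Msi2, an RNA-binding protein, -1.76 points), the myeloid factors -0.43 over 16 and the erythroid and megakaryocyte genes -1.10 over 8. HSC surface markers, 6 measured, ran from -1.27 (Neo1) to 1.56 points (Cd34). Of the lymphoid factors, the T-cell gene Tcf7 was 7.38 ± 2.63 points higher in late HSCs, carried by 1 of its 6 bins (41.2 points, chr11:52282300-52282399), at 7.61, 17.9 and 27.1%, against 2.06, 9.35 and 21.3% in early HSCs, and Bcl11b was 2.83 points lower (limma, adjusted p = 0.896 for both). Csf2ra, which encodes the receptor chain for the growth factor GM-CSF, had 20.7, 44.0 and 59.0% in late HSCs, against 0, 16.7 and 50% in early HSCs. Its 2 bins gave the early samples a wide scatter, with 2 of the 2x samples at 0 and 2 others at 50%, and the signal receptor gene Il6st was 2.11 points lower.

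Genes tied to the drug and to damage showed few differences. Among 12 measured genes of fluorouracil metabolism and uracil repair, 10 were lower in late HSCs, and 2 had an unadjusted p under 0.05: Dpyd, the enzyme that degrades 5FU, at medians of 2.59% in late and 9.66% in early HSCs, and Rrm1, of the ribonucleotide reductase, at 29.6% and 31.8%. Of 21 genes of the p53 and damage response, Mdm4, an inhibitor of p53, was 8.40 points higher. The group means of Mdm4 were 44.19% (0x), 39.07% (2x), 44.22% (4x) and 53.04% (10x), so 4x stood level with 0x. Of 12 cell cycle inhibitors, 9 were lower, with a median of -1.14 points and Cdkn1c, an imprinted gene that holds HSCs in quiescence, at 36.0% in late and 52.8% in early HSCs in the median (limma, unadjusted p = 0.0548). The group means of Cdkn1c were 43.8% (0x), 61.15% (2x), 50.1% (4x) and 32.7% (10x), so 4x lay above 0x. The median difference was -0.39 points over 15 BCL2 family genes, -0.32 over 8 telomerase and shelterin genes and 0.04 over 14 drivers of clonal haematopoiesis.

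Developmental regulators, whose CpG-rich promoters Polycomb binds in blood cells, went both ways. Of 33 Hox genes 18 were higher, and Hoxc6 had the smallest p (medians of 26.6% in late and 14.2% in early HSCs, 11.2 ± 4.86 points). The group means of Hoxc6 were 8.82% (0x), 22.8% (2x), 27.1% (4x) and 29.3% (10x), with the largest step inside the early side. Lhx3 was higher by 7.23 points and Lhx5 and Lhx6 lower by 6.18 and 5.87 points in late HSCs. Among 76 other homeobox and paired genes, 31 were higher and 45 lower, with Dbx1 at 4.83, Irx1 at 3.03 and Nkx3-2 at -2.01 points. For Dbx1, 4x minus 0x was 0.76 points. Foxc2 was higher by 8.15 points, at medians of 11.2% in late and 4.95% in early HSCs, Tbx20 by 6.49 points and Wnt10a by 4.00 points. Medians were -0.07 points over 30 forkhead genes, 0.30 over 18 T-box and GATA genes, -0.02 over 32 Wnt genes and -0.41 over 21 Notch genes, in which Maml1 was higher by 2.26 points.

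Of 14 measured germline genes, which stay methylated in blood, 12 were higher in late HSCs, with medians of 94.3% in late and 90.5% in early HSCs over genes and a median difference of 1.68 points, against 64.6% higher and a median of 1.33 points over all 1178 promoters above 80%. Mael, a gene of transposon silencing in the germline, had 90.0, 92.5 and 95.6% in late HSCs, against 78.9, 85.9 and 96.2% in early HSCs (5.24 ± 2.06 points). Of 28 imprinted genes, in which the parental copies differ, 15 were higher, among them Magel2 with 49.99, 59.2 and 63.5% in late HSCs, against 36.9, 51.0 and 63.5% in early HSCs (8.11 ± 2.60 points). Among 15 pluripotency genes, Dppa3 was lower by 12.3 points and Lin28b by 1.73. In cAMP signalling Pde4c was 8.52 points higher (21 genes, median -0.01), and among 29 actin cytoskeleton genes Rac1, a small GTPase, was 1.66 points higher (median -0.41).

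Genes that the study names for promoter methylation differed by little more than 3 points at most. Of those named with a gain, 5 of 9 were measured and ran from -1.83 (Cebpe) to 0.91 points (Rara), with Grb2, Eif4ebp1 and Flt3 at -0.93, -0.29 and 0.37 points. Of those named with a loss, 9 of 11 were measured and ran from -3.24 (Cdkn2a) to 3.004 points (Pparg), with Itga3 at -2.65, Terc at -2.45, Wnt5a at -1.41, Wnt3a at 0.88, Cdkn1b at 0.63, Wnt7a at 0.42 and Tert at -0.12 points. None had an unadjusted p under 0.05. Cebpe, Flt3, Cdkn1b, Itga3, Terc and Tert rested on 1 compared bin each, not on the whole promoter. The early values of Cebpe ran from 0 to 94.1%, so its small difference says little. These lists were chosen by the study on these samples as changes shared by all numbers of cycles against 0x, a different contrast from this one, in which 2x is on the early side. Bcor, an X-linked gene the study names for late cycles, lay outside the autosomal bins.

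The pooled comparison joined groups that differed among themselves. In a fit of all 4 groups, 10x minus 4x gave 0 called bins (0%; limma, adjusted p under 0.05 and 10 points), with 2246 at an unadjusted p under 0.05, while 2x minus 0x, inside the early side, gave 27 (0.0332%), 16 higher and 11 lower in 2x. Of the 2523 bins with an unadjusted p under 0.05 and at least 10 points in 10x minus 2x, 54.1% had the same sign in 4x minus 0x, against 51.5% of all bins. Bins higher in 10x than in 2x were higher in 4x than in 0x in 58.0% of cases, against 54.8% of all bins of that sign. Those lower in 10x than in 2x were lower in 4x than in 0x in 49.4%, against 47.6%. In the reverse reading, bins higher in 4x than in 0x were higher in 10x than in 2x in 55.0%, against 54.7%. Samples numbered 13 to 34 chose 2160 bins, of which 55.5% had the same sign among samples numbered 1 to 12, against 49.4% of all bins, and 123 bins passed in both with the same sign and 55 with opposite signs. Read from 4x minus 2x to 10x minus 0x, 46.3% of 1942 bins had the same sign, against 51.1% of all. For that pair, 83 bins passed in both with the same sign and 115 with opposite signs.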

How the data were processed

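For RRBS, the authors used Trim Galore 0.4.3 to trim at a quality above 25 and Bismark 0.23.1 for the alignment (mm10). In methylKit 1.22.0 they kept bases with 10 reads, averaged CpGs in 100 bp bins and filled missing bins with the group mean. The deposited values are percent methylation per bin and sample. The tables do not mark which values were filled, which is why the bin set was restricted, and a value filled in 1 sample of a group cannot be recognised.

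The 20 samples were pooled by the label into late (4x, 10x) and early (0x, 2x). Bins and promoters (bins within 1 kb of a RefSeq GRCm38.p6 TSS) were tested with limma 3.58.1 in R 4.3.3, adjusted by Benjamini-Hochberg over all bins or genes. Sample means were compared by two-sided permutation of the samples (scipy 1.17.1, 100000 resamples, in which 2e-05 is the smallest p), exactly within the 2 ranges of label numbers and where fewer samples were used. The 95% intervals are the difference ± its SE, taken from both SDs, times the factor of the t distribution. Solo-WCGW CpGs have A or T on each side and no other CpG within 35 bp. Figures were drawn with matplotlib 3.10.9, and arrays were handled with pandas 2.3.3 and numpy 2.4.6 under Python 3.11.15. Bin sequences come from RefSeq GRCm38.p6, and each bin was taken as start to start plus 99 bp.

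The members, the 29 gene lists and the tests were chosen with earlier results of these data known. Named promoters are the 10 with the smallest unadjusted p in each direction (Gm and Rik genes left out), the genes the study names, and up to 3 genes per list with the smallest p. limma was tested on simulated data with 200 changed bins. The alternatives were other bin sets, scales, windows, weights and thresholds, the label number range as a block, and leaving out each group and each sample.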

Additional observations from a re-analysis of the deposited data

Results flagged for a closer look

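In 5 instances a single sample stood far from the other samples of their group or side, among 118 groups of values checked; chance alone flags about 1 in 20. The 0x sample numbered 01 had a mean of 75.9% over intergenic bins and 60.3% over non-coding exons, above the 3 other 0x samples. The 4x sample numbered 06 had 4.54% in bins under 20%, above the 9 other late samples, and it also had the smallest share of values at 0 or 100, 9.41%. The 4x sample numbered 05 had 19.2% at the Dcdc2a promoter and 17.4% at the Mir128-2 promoter, above the other late samples.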

How the results depend on the processing

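Leaving out each sample in turn kept the mean difference between 0.73 and 0.91 points and the number of classes past the test at 7. The mean, without a call, was 0.40 points where at least 3 groups varied and 0.62 points without 10x; in both 0 classes passed, and of 9 strata 1 and 2 passed, against 8. Promoter bins turned to higher in late HSCs in all deposited bins that vary (0.29 points), where at least 3 groups varied (0.18), with at most 25% of values at 0 or 100 (0.52) and without 2x (0.0836). Bins under 20% turned to 0.38 points in all deposited bins that vary and 0.23 where at least 3 groups varied, and were -0.06 points (adjusted p = 0.321) with levels taken from early samples. Bins with over 10 CpGs turned to 0.0579 where at least 3 groups varied and 0.12 with at most 25% of values at 0 or 100. The distance between bins over 80% and under 20% turned to -0.36 points in all deposited bins that vary and -0.0167 where at least 3 groups varied. The share at 0 or 100 lost its call in all deposited bins that vary (-3.36 points), without 2x (-5.54) and without 10x (-13.5), and lay between -18.3 and -13.3 points without single samples.

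Called bins numbered 48688 in all deposited bins that vary, where filled values stand in for samples, 34 where at least 3 groups varied, 2 on the log2 ratio scale, 5 without 0x, 30 without 2x, 1 without 10x, 11 at an adjusted p under 0.2, and 0 to 1 without single samples. Called promoters numbered 2702 in all deposited bins that vary and 4 where at least 3 groups varied (Acox3, Nat8l and Rfc1 higher, S100a3 at -35.02 points). Without 2x, 2 were called (Mettl22 and the overlapping Gm30012). Adamts9 alone was called in the 3 settings with at most 25% of values at 0 or 100, a 500 bp window, or 3 bins per promoter, and without single samples 0 to 1 were called. The label number range as a block, the autosomes with X and equal weights of the 4 groups changed none of these calls of mean, bins or promoters, and centred samples none of bins or promoters. Apart from levels taken from early samples, the alternatives for strata and for the share at 0 or 100, and the adjusted p of 0.2, were chosen after seeing the data. No paired analysis was possible because the groups share no replicate numbers. Unknown read numbers limit every value. The causes were not tested.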
